A study of Mus musculus with 8 samples.

Results

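The genes described here are 10 interferon-inducible GTPases of the mouse, 6 of them guanylate-binding proteins (Gbp2, Gbp3, Gbp5, Gbp6, Gbp7 and Gbp9) and 4 of them immunity-related GTPases (Irgm1, Irgm2, Igtp and Iigp1). They were taken by symbol from a table of 46983 gene identifiers, and each symbol matched 1 identifier. The study asked what the loss of Ppp1r8 does to the epidermis; its product, NIPP1, binds the phosphatase PP1 in the nucleus. RNA was sequenced from tail epidermis of 8 mice aged 8 weeks, 4 per group, with 1 library per mouse. All 8 mice carried the transgene Tg(KRT14-cre)1Amc/J in the form K14-Cre/+, whose K14 promoter is active in basal keratinocytes. CTR mice had the Ppp1r8 genotype fl/+, that is 1 floxed and 1 wild-type allele. KO mice had the genotype fl/-, that is 1 floxed and 1 null allele, so that Cre can leave no intact copy in the keratinocytes where it acts, while 1 intact copy remains in cells it does not reach. The strain field names the alleles Ppp1r8tm1Ave and Ppp1r8tm1.1Itl for both groups. The epidermis was separated from the dermis with dispase (10 mg/ml, 5 h, 4 °C) and was not sorted, so immune cells that live in the epidermis were part of the sample.

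Guanylate-binding proteins (GBPs) and immunity-related GTPases (IRGs) are made when interferon, above all interferon gamma, binds its receptor and Janus kinases signal to the nucleus. The proteins assemble on the vacuoles of intracellular bacteria and parasites, and several GBPs promote inflammasome and pyroptosis signalling. In the IRG family, Irgm1, Irgm2 and Igtp encode regulators that sit on the cell's own membranes and restrain effectors such as the product of Iigp1. Keratinocytes and resident immune cells both respond to interferon.

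The libraries held 16696212 to 21571935 counts each. Levels are normalised CPM (counts scaled to a common library size), and the floor of detection, 3 counts in 1 library, equalled 0.141 to 0.186 CPM. Of 15638 genes that passed a filter on low counts, 1792 (11.5%) were higher and 1908 (12.2%) lower in KO epidermis (edgeR quasi-likelihood test, Benjamini-Hochberg adjusted p under 0.05). Keratinocyte markers dominated all libraries, with a summed level of 44394 to 48670 CPM for 10 genes in CTR and 66683 to 85168 CPM in KO. The largest rises in CPM were those of Krt1 (2488 CPM in CTR, 18366 CPM in KO) and Krt10 (15650 and 31131 CPM). Of the 10 genes, 3 were called higher and 3 lower, with a median log2 fold change of -0.11, so the markers did not rise as a set. Ppp1r8 had 37.9 ± 3.58 CPM in CTR and 36.4 ± 8.00 CPM in KO (SD, n = 4 each, log2 fold change -0.06, adjusted p = 0.789), a sum over all exons that does not check the genotype labels. The genes Ddx3y, Eif2s3y, Kdm5d and Uty of the Y chromosome had 0 counts in all 8 libraries. Xist, expressed from the inactive X chromosome, was lower in KO, with 792 CPM in CTR and 419 CPM in KO (adjusted p = 0.00817).

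The GTPase genes were expressed at low levels and were higher in KO epidermis where the counts allowed a test. Of the 10 genes, 5 passed the filter, and Gbp2, Gbp7, Irgm1, Irgm2 and Igtp were each higher in KO (5 of all 10 higher, against 11.5% of all genes tested). Irgm1, Irgm2 and Igtp reached the filter level in every library of both groups. Gbp2 reached it only through the KO group, so that it could enter the test in no other way than by being higher there. Gbp7 reached it in all KO but not in all CTR libraries, so its entry rested in part on the KO group. The other 5 genes, Gbp3, Gbp5, Gbp6, Gbp9 and Iigp1, had too few reads and are given by their counts. Every KO library lay above every CTR library for 6 of the 10 genes, namely the 5 tested genes and Gbp9. The share was 12.8% over all genes tested, a set that leaves out Gbp9 and the other untested genes. In bulk tissue, fewer or more cells of a type and less or more RNA per cell cannot be told apart.

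The regulators of the IRG family held the highest levels per kilobase among the 10 genes. Igtp, also called Irgm3 (ENSMUSG00000078853.8, chromosome 11, 58199556 to 58207591, plus strand, GRCm38), had 0.871, 0.866, 0.866 and 0.941 CPM in CTR 1 to 4. In KO 1 to 4 it had 2.67, 2.33, 2.60 and 2.59 CPM. The groups were far apart and each was tight: the lowest KO library, KO 2, had more than any CTR library, and the CTR libraries differed by less than 0.1 CPM. The means were 0.886 ± 0.0369 and 2.55 ± 0.153 CPM (SD, n = 4 each), a 2.86-fold rise (log2 fold change 1.52, SE 0.18, edgeR quasi-likelihood adjusted p = 0.000649). These levels rest on 69 reads in CTR and 198 in KO.

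Irgm2 (ENSMUSG00000069874.6, chromosome 11, 58199618 to 58222782, plus strand) is the neighbour of Igtp, and its gene model starts just inside Igtp and runs past its end. It had 1.13, 1.35, 1.42 and 1.51 CPM in CTR 1 to 4. In KO 1 to 4 it had 3.88, 2.48, 2.45 and 3.81 CPM. KO 1 and KO 4 stood above KO 2 and KO 3, and all of them stood above CTR. The means of 1.35 ± 0.163 and 3.16 ± 0.797 CPM gave a 2.33-fold rise (log2 fold change 1.22, SE 0.22, adjusted p = 0.00476), from 105 reads to 244 reads.

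Irgm1 (ENSMUSG00000046879.6, chromosome 11, 48861968 to 48871683, minus strand), an IRG regulator that also takes part in autophagy, lies elsewhere on that chromosome. Its level in CTR 1 to 4 was 2.25, 1.88, 2.60 and 2.54 CPM. In KO 1 to 4 it was 4.77, 3.19, 3.66 and 4.50 CPM. The gap between the groups was the narrowest among the tested IRG genes, from CTR 3 to KO 2. The means of 2.32 ± 0.331 and 4.03 ± 0.735 CPM gave a 1.74-fold rise (log2 fold change 0.80, SE 0.19, adjusted p = 0.0145), from 179 to 312 reads. The 3 regulators therefore rose by 1.74-fold to 2.86-fold, and the differences between these rises were not tested.

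Promoter windows of 300 bases (250 before and 50 after the start) were taken from RefSeq, build GRCm38.p6, for 7 of the 10 genes. Gbp6, Gbp9 and Iigp1 were not matched. Each window was searched on both strands for the core of the interferon-stimulated response element (ISRE), GAAANNGAAA, which interferon regulatory factors bind. It was also searched for the gamma-activated sequence (GAS), TTCNNNGAA, an element of interferon gamma responses, and for a core of NF-kappaB sites, GGGNNTTTCC. The stretches around the matches of the 3 IRG regulators are printed to show the matches and their surroundings. They read 5′ to 3′ along each gene's strand, with ISRE and GAS matches in capitals. They cover chr11:58199462-58199546 (plus strand) for Igtp, chr11:58214853-58214937 (plus strand) for Irgm2 and chr11:48871421-48871510 (minus strand) for Irgm1.
Igtp: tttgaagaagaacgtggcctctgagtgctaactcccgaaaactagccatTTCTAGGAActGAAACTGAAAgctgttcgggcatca
Irgm2: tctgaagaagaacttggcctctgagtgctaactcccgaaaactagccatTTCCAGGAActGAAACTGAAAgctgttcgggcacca
Irgm1: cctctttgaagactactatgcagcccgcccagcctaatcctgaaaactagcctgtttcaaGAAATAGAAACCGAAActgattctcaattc
The Igtp and Irgm2 stretches were identical at 81 of 85 bases (95.3%). Over the 220 upstream bases that could be aligned without gaps, 134 were identical (60.9%). Each holds a GAS match, then 2 free bases, then an ISRE match with the same letters. The ISRE match begins 34 bases before the RefSeq start of Igtp and 64 bases before that of Irgm2. Irgm1 has 2 overlapping ISRE matches, which begin 30 and 24 bases before its start, and no GAS match in this window. In the GENCODE M21 annotation the Irgm1 stretch lies in an exon of a longer non-coding Irgm1 transcript. The Irgm2 stretch lies within the span of the Irgm2 gene model, which starts further upstream.

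Among the GBP genes, Gbp2 and Gbp7 had the larger part of the reads. Gbp2 and Gbp7 lie in 1 cluster with Gbp5 and Gbp3 on chromosome 3. Gbp7 (ENSMUSG00000040253.15, chromosome 3, 142530342 to 142550149, plus strand) had 0.666, 0.674, 0.371 and 0.330 CPM in CTR 1 to 4. In KO 1 to 4 it had 1.89, 1.72, 1.60 and 1.48 CPM. CTR fell into a higher pair (CTR 1 and 2) and a lower pair, while the KO libraries lay close together and well above both pairs. The means of 0.510 ± 0.185 and 1.67 ± 0.172 CPM gave a 3.23-fold rise (log2 fold change 1.69, SE 0.27, adjusted p = 0.00261), from 40 to 130 reads.

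Gbp2 (ENSMUSG00000028270.12, chromosome 3, 142620602 to 142638008, plus strand), a GBP that targets bacterial and parasite vacuoles, had the largest and least even difference of the 5 tested genes. CTR 1 to 4 had 0.102, 0.289, 0 and 0.518 CPM, from 2, 6, 0 and 11 reads. KO 1 to 4 had 2.15, 0.657, 2.05 and 1.54 CPM, from 41, 13, 41 and 29 reads. KO 2 lay only just above CTR 4, while the other KO libraries lay far above all of CTR. The means were 0.227 ± 0.228 and 1.60 ± 0.683 CPM, a 6.49-fold rise (log2 fold change 2.70, SE 0.60, adjusted p = 0.0107).

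**Figure D1:**
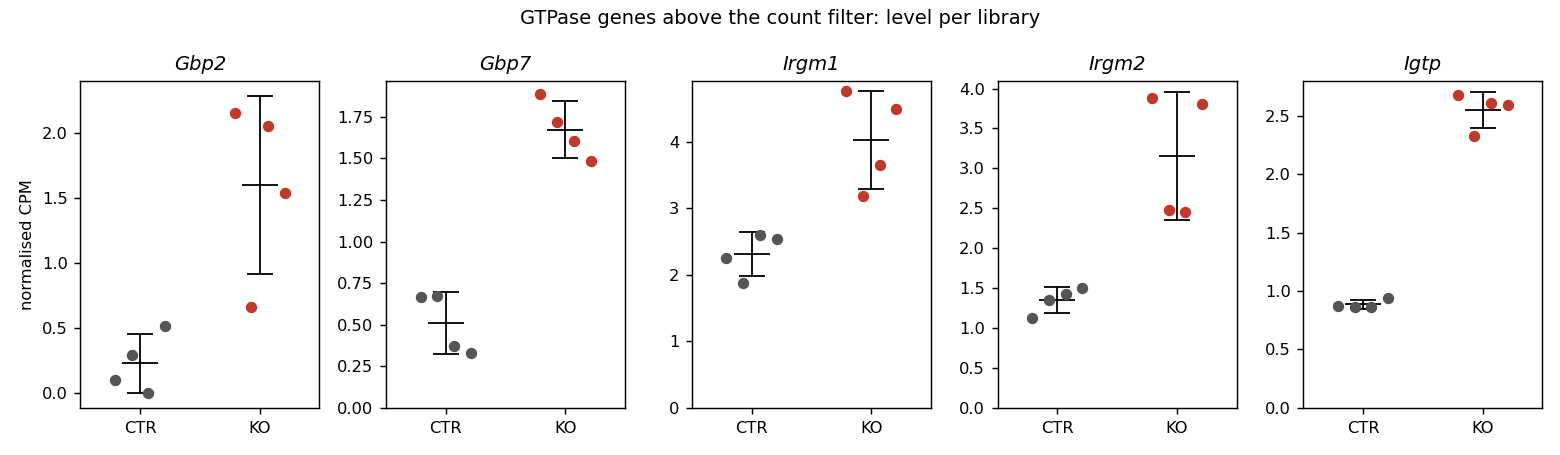
Level of the 5 GTPase genes above the count filter in each library, in normalised CPM (vertical axes differ between genes and start at or just below 0). Points are libraries, 4 CTR and 4 KO, and bars give the mean ± SD. Every KO library lies above every CTR library for each gene, with the narrowest gap for Gbp2 (CTR 4 at 0.518 CPM and KO 2 at 0.657 CPM).

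The effector Iigp1, also known as Irga6 (ENSMUSG00000054072.11, chromosome 18, 60376027 to 60392634, plus strand), stayed near the floor in both groups. CTR 1 to 4 had 1, 7, 0 and 0 reads. KO 1 to 4 had 4, 1, 4 and 0 reads. The groups overlapped fully, and 7 of the 8 CTR reads came from CTR 2. The ratio of the pooled levels was 1.13 with a 95% counting interval of 0.385 to 3.35, so that a rise as large as that of Igtp was not excluded at this depth.

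Gbp3 and Gbp9 had more reads in KO, but did not pass the test that includes genes of low count. Gbp3 (ENSMUSG00000028268.14, chromosome 3, 142560026 to 142573209, plus strand) had 5, 4, 0 and 2 reads in CTR 1 to 4. KO 1 to 4 had 21, 2, 8 and 16 reads. KO 2 lay within the CTR range and the other KO libraries above it, and the ratio of the pooled levels was 4.27 (95% counting interval 2.18 to 9.14). In a fit with no count filter the log2 fold change was 2.07 (SE 0.69, edgeR quasi-likelihood adjusted p = 0.0614 over 26685 genes, of which 6.53% were higher in KO).

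Gbp9 (ENSMUSG00000029298.15, chromosome 5, 105077630 to 105139539, minus strand) had 1, 3, 1 and 1 reads in CTR 1 to 4. KO 1 to 4 had 4, 7, 4 and 5 reads. The groups did not overlap, and the pooled ratio was 3.33 (95% counting interval 1.29 to 10.1). The adjusted p was 0.0784 in the fit with no count filter.

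Gbp5, which promotes assembly of the NLRP3 inflammasome (ENSMUSG00000105504.4, chromosome 3, 142493978 to 142522344, plus strand), had 0 reads in all CTR libraries. KO 1 to 4 had 7, 0, 4 and 2 reads. It was thus read in 3 of the 4 KO libraries. Against a floor of 3 counts set for the CTR group (0.0386 CPM), the pooled KO level was 4.33-fold. The lower 95% counting limit of the pooled ratio, against the 0 reads of CTR, was 3.05-fold. It was called in the fit with no count filter (adjusted p = 0.0476), and that call was lost in 7 of the 8 fits that left out 1 library (adjusted p = 0.0195 to 0.124).

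Gbp6 (ENSMUSG00000104713.4, chromosome 5, 105270702 to 105293698, minus strand) had 0, 2, 2 and 2 reads in CTR 1 to 4. KO 1 to 4 had 2, 4, 3 and 1 reads. The groups overlapped, the pooled ratio was 1.67 (95% counting interval 0.549 to 5.58), and a change was not detectable at this depth. Counting intervals cover the counting error of the pooled reads only, and leave out variation between mice. They also treat each read as a separate molecule, although the reads carried no molecular identifiers.

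**Figure D2:**
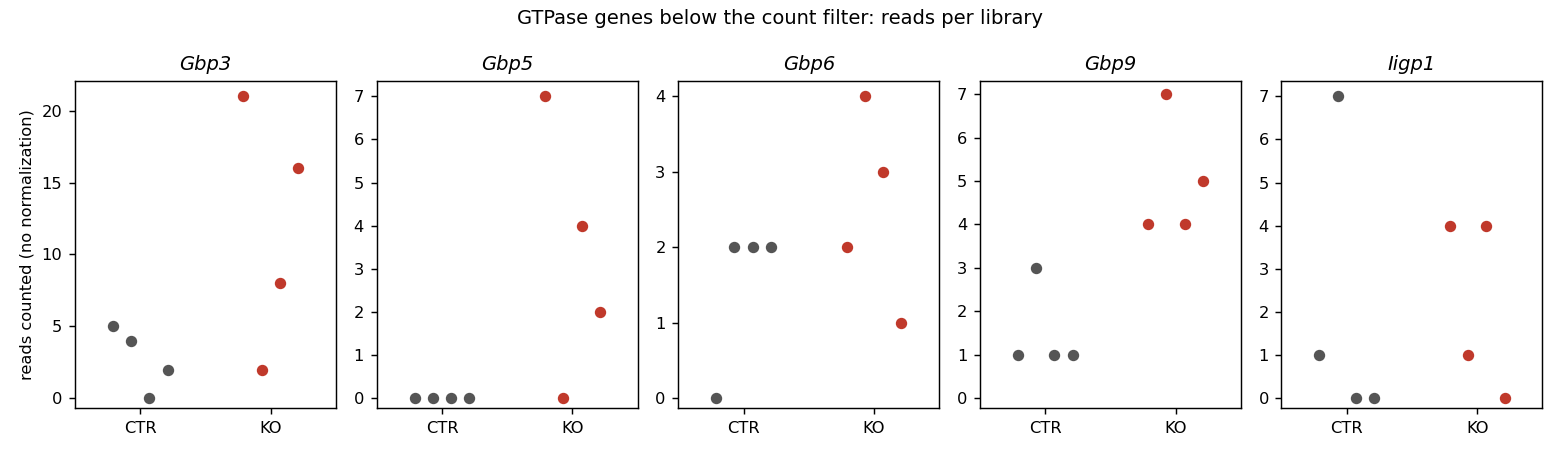
Reads counted per library, without normalization, for the 5 GTPase genes below the count filter (4 CTR and 4 KO points each, vertical axes differ between genes). Gbp9 alone separates the groups, with 1 to 3 reads in CTR and 4 to 7 in KO, and Iigp1 and Gbp6 overlap.

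The promoter stretches of the 2 tested GBP genes show the same ISRE core read on the opposite strand, as TTTCNNTTTC. They are printed as above, and cover chr3:142530223-142530307 for Gbp7 and chr3:142620544-142620628 for Gbp2 (both plus strand, GRCm38.p6).
Gbp7: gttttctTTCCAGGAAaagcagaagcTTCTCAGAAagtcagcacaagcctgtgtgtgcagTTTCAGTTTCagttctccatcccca
Gbp2: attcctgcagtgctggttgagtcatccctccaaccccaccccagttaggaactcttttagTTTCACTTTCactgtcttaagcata
Gbp7 has 2 GAS matches, which begin 106 and 87 bases before its start, and 1 ISRE match, which begins 53 bases before it. Gbp2 has 1 ISRE match, which begins 59 bases before its RefSeq start and lies just inside the first exon of the GENCODE transcript that starts earliest. Over the 7 matched genes, the ISRE core was found in 7 (Gbp2, Gbp3, Gbp5, Gbp7, Irgm1, Irgm2 and Igtp), against 3.44% of 32851 RefSeq windows and 2.80% of 13685 windows of tested genes. Gbp3 had a second window, from another start, without a match. GAS was found in 4 of the 7 (Gbp5, Gbp7, Irgm2 and Igtp), against 8.30% of all windows and 6.82% of windows of tested genes. The NF-kappaB core was found in Gbp5 only, against 1.63% of all windows. The genes were chosen as interferon-inducible, and a match is a run of letters, not a measured site.

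Between genes, levels were compared as CPM per kilobase of merged exons. In CTR, Igtp (0.438 ± 0.0183), Irgm1 (0.399 ± 0.0569) and Irgm2 (0.366 ± 0.0441) came first, and neighbours in this order differed by less than their spread. Gbp7 (0.0909 ± 0.0330) and Gbp2 (0.0903 ± 0.0905) followed at nearly the same level. In KO, Igtp stood above the rest at 1.26 ± 0.0757 CPM per kilobase. Irgm2 (0.855 ± 0.216), Irgm1 (0.693 ± 0.127) and Gbp2 (0.635 ± 0.272) followed, and neighbours among these 3 differed by less than their spread. Gbp7 (0.298 ± 0.0307) and Gbp3 (0.188 ± 0.137) came after them, and Gbp9, Gbp5, Gbp6 and Iigp1 lay at 0.0497 or less. With the longest transcript in place of merged exons, Irgm1 came first in CTR (0.605 ± 0.0863 CPM per kilobase) and second in KO (1.05 ± 0.192), so the order of the IRG regulators depends on the length used.

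Family members share sequence, which limits single values. Windows of 75 bases, the read length, that occur in no other annotated transcript made up 88.7% to 100% of the transcript sequence for 9 of the 10 genes. The exception was Gbp6, with 32.7% unique windows and 61.7% shared with the gene model Gm43302, which had 0 counts in all libraries, so that its level could be understated. Gbp7 shared 10.0% of its windows with the pseudogene Gm43802, also at 0 counts. Igtp and Irgm2 share 162 bases of exon, 8.01% of the exon length of Igtp and 4.39% of that of Irgm2.

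Within the KO group, KO 1 had the highest level in 5 of the 5 tested genes and in 8 of all 10. KO 2 had the lowest in 3 of the 5 and in 5 of the 10. The summed level of the 10 GTPase genes was 5.38, 5.82, 5.44 and 6.07 CPM in CTR 1 to 4. It was 17.4, 11.1, 13.5 and 15.2 CPM in KO 1 to 4. The groups did not overlap, and the KO libraries were more spread than the CTR libraries.

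Most pan-leukocyte markers were higher in KO, as the tested GTPase genes were. Of 5 pan-leukocyte markers tested, 4 were higher and 0 lower, against 11.5% and 12.2% of all genes tested. Laptm5, Coro1a, Cd52 and Cd53 rose (log2 fold change 0.78, 1.26, 1.52 and 0.83), and Ptprc, the gene of CD45, had 0.87 (edgeR quasi-likelihood adjusted p = 0.0709). Their summed level was 8.96, 8.57, 13.9 and 9.60 CPM in CTR 1 to 4. It was 24.9, 19.0, 21.2 and 18.2 CPM in KO 1 to 4, highest in KO 1 as for the GTPase genes. Otherwise the order within groups differed. KO 4 had the lowest marker sum of KO, but a GTPase sum of 15.2 CPM, above KO 2 and KO 3. CTR 3 had the highest marker sum of CTR, but a GTPase sum of 5.44 CPM, below CTR 2 and CTR 4. The ratio of the GTPase sum to the leukocyte sum was 0.391 to 0.680 in CTR and 0.584 to 0.837 in KO, and these ranges overlapped. Of the 8 Langerhans and dendritic cell markers, 5 were tested and 2, Cd207 and Itgax, rose, against 11.5% of all genes tested. The 8 markers had a summed level of 7.02 to 9.84 CPM in CTR and 11.0 to 17.4 CPM in KO. Of 12 T and NK cell markers, 3 were tested and all 3, Cd3e, Trdc and Trbc2, rose, against 11.5% of all genes tested. The 12 markers had a sum of 7.32 to 11.8 CPM in CTR and 13.6 to 25.3 CPM in KO. Cd3e and Trdc reached the filter level only through the KO group, so their count among tested genes carries no weight. Ncr1 was at 0. Macrophage and monocyte markers had 2 genes tested and none called by any of the 3 tools or at an unadjusted p under 0.05 (13.1 to 18.7 CPM against 18.0 to 22.0 CPM). The part of these cells in the GTPase levels was not tested beyond the fits given next.

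**Figure D3:**
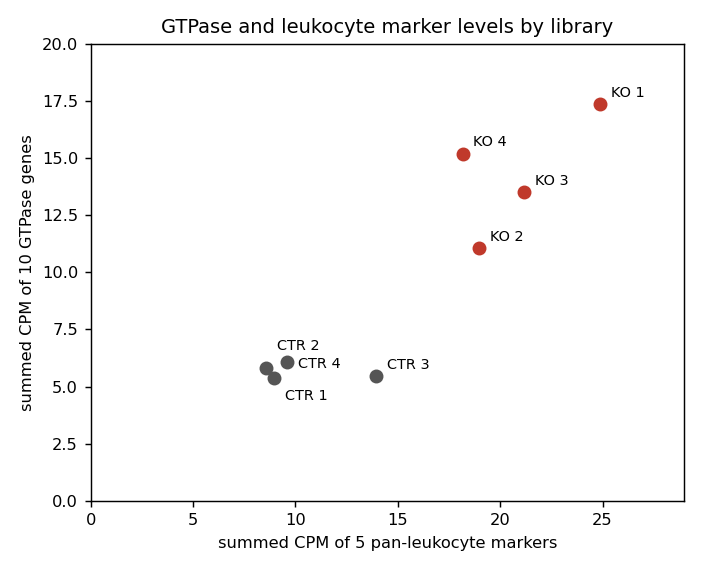
Summed level of the 10 GTPase genes (vertical axis, CPM) against the summed level of 5 pan-leukocyte markers (horizontal axis, CPM) in each of the 8 libraries. CTR libraries lie at 5.38 to 6.07 CPM of GTPase genes and 8.57 to 13.9 CPM of markers, and KO libraries at 11.1 to 17.4 CPM and 18.2 to 24.9 CPM, so both sums separate the groups.

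A fit with the leukocyte marker level as an added term called 11 genes of 15638 in all and none of the GTPase genes (0 of 5). At an unadjusted p under 0.05 there were 1622 genes, Gbp7 and Igtp among them. A fit with the Xist level as an added term called 77 genes in all and again none of them. At an unadjusted p under 0.05 there were 2885 genes, with Gbp2, Gbp7 and Igtp among them. Neither the Xist levels nor the summed marker levels overlap between the groups, so that term and group cannot be told apart. In these fits Igtp, with an SE of 0.18 and a log2 fold change of 1.52 without a term, had log2 fold changes of 1.44 with the leukocyte term (SE 0.45, adjusted p = 0.290, unadjusted p = 0.00994) and 1.44 with the Xist term (SE 0.32, adjusted p = 0.0739, unadjusted p = 0.00138). Gbp7 had 2.03 and 1.84, and Gbp2 2.62 and 2.50. Irgm2 had 1.02 and 0.59, against 1.22 without a term. Irgm1 had 0.34 and 0.30, less than its 0.80 without a term.

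**Figure D4:**
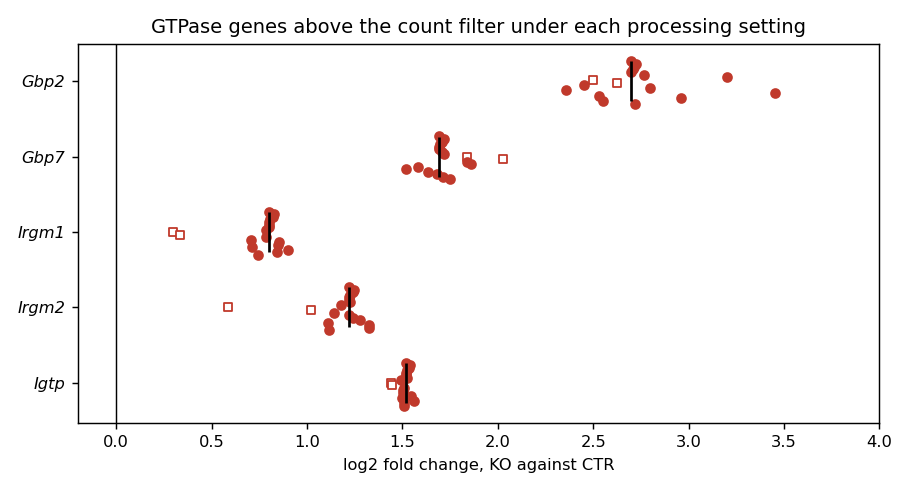
Log2 fold change (KO against CTR, horizontal axis) of the 5 tested GTPase genes under each processing setting. The black line is the reported value, filled points are settings in which the gene was called, and open squares are settings in which it was not, namely the fits with an Xist term or a leukocyte marker term. All values are above 0, and the points of Igtp lie close together, from 1.44 to 1.56.

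The remaining genes of both families, a list of 20 symbols of which 18 were in the table, were mostly unread. The list had 2 tested genes. Gbp2b, known as Gbp1, lies in the chromosome 3 cluster and was higher in KO. Like Gbp7, it reached the filter level in all KO but not in all CTR libraries. It had 0.563, 0.481, 0.495 and 0.282 CPM in CTR 1 to 4. In KO 1 to 4 it had 2.62, 1.11, 1.00 and 1.11 CPM. KO 1 stood far above the other KO libraries, and all KO libraries stood above CTR (3.20-fold, log2 fold change 1.68, SE 0.39, adjusted p = 0.0132). Its promoter window holds an ISRE match too, which begins 137 bases before the start. Irgq, a quasi-GTPase of the IRG family that is not known as an interferon target, had 73.6 ± 0.548 CPM in CTR and 61.7 ± 9.91 CPM in KO (log2 fold change -0.25, adjusted p = 0.0971).

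Of the 16 untested relatives, Tgtp1, Gm4951, Gm4841, F830016B08Rik and Gm12187 had 0 counts in all libraries. Gbp4 had 5 reads in CTR and 16 in KO, Gbp8 had 2 and 6, and Gm12250, the gene of Irgb10, had 3 and 8. The reads of 9930111J21Rik2 were 8 and 11, and those of 9930111J21Rik1 were 0 and 3. Irgc1 had 0 and 5 reads, Gbp11 had 0 and 1, Gbp10 had 4 and 1, Tgtp2 had 3 and 0, and Gm5431 and Gm12185 each had 1 and 0. These counts are too small to compare groups. Of 6 tested genes of other large GTPases, the antiviral Mx1 alone was called, named here after its value was seen (log2 fold change 1.63, adjusted p = 0.0108, 1 of 6 against 11.5% of all genes). Like Gbp2, it reached the filter level only through the KO group. The most abundant, the atlastin genes Atl3 (log2 fold change 0.09) and Atl2 (-0.08), which shape the endoplasmic reticulum, did not pass.

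Upstream in the pathway, the ligands were close to unread. Of 21 interferon genes 19 had 0 counts in all libraries, Ifng among them, and the list had 3 reads in total. These were 2 reads of Ifne in KO 3 and 1 read of Ifnk in CTR 3. For a gene at 0 counts, the floor of 3 counts over a group of 4 libraries equals 0.0386 CPM.

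Receptor and Janus kinase genes were called about as often as all genes tested. Of 9 tested 1 was higher and 1 lower, against 11.5% and 12.2% of all genes, and their median log2 fold change was 0.05, against -0.0026 over all genes tested. The interferon gamma receptor chains Ifngr1 (39.4 ± 6.80 CPM in CTR, 45.6 ± 2.41 in KO, log2 fold change 0.21, adjusted p = 0.214) and Ifngr2 (0.03, adjusted p = 0.796) did not pass. Nor did the type I receptor chains Ifnar1 (-0.09) and Ifnar2 (0.32), or the kinases Jak1 (0.05) and Jak2 (0.16). Il10rb, a chain shared by the interferon lambda and interleukin 10 receptors, rose (0.41, adjusted p = 0.0228), and Ifnlr1, the other interferon lambda chain, fell (-0.30, adjusted p = 0.0322). The Ifnlr1 call was lost without any of the 4 CTR libraries, KO 2 or KO 4, and that of Il10rb without CTR 1, CTR 3 or KO 4 (adjusted p over all alternatives 0.0175 to 0.600 and 0.00834 to 0.375).

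Among transcription factors and feedback genes 4 of 16 tested were higher (11.5% of all genes) and 0 lower (12.2%), with a median log2 fold change of 0.16. Irf1, an interferon-induced factor that binds ISRE sequences, had 3.94, 4.47, 3.77 and 3.15 CPM in CTR 1 to 4. In KO 1 to 4 it had 11.1, 7.08, 7.61 and 8.37 CPM. KO 1 was highest and KO 2 lowest, as for Igtp, and no KO library overlapped CTR (2.22-fold, log2 fold change 1.15, SE 0.18, adjusted p = 0.00224). Nlrc5, the activator of MHC class I genes, rose from 5.03 ± 0.417 to 16.8 ± 2.64 CPM (3.33-fold, adjusted p = 0.00015), and the phosphatase gene Ptpn2, which restrains Janus kinase signalling, rose by 1.34-fold (adjusted p = 0.0162). Irf8 had a log2 fold change of 0.80 (adjusted p = 0.138), Irf9 of -0.01 and the inhibitor gene Socs1 of 0.11, none past the threshold.

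**Figure D5:**
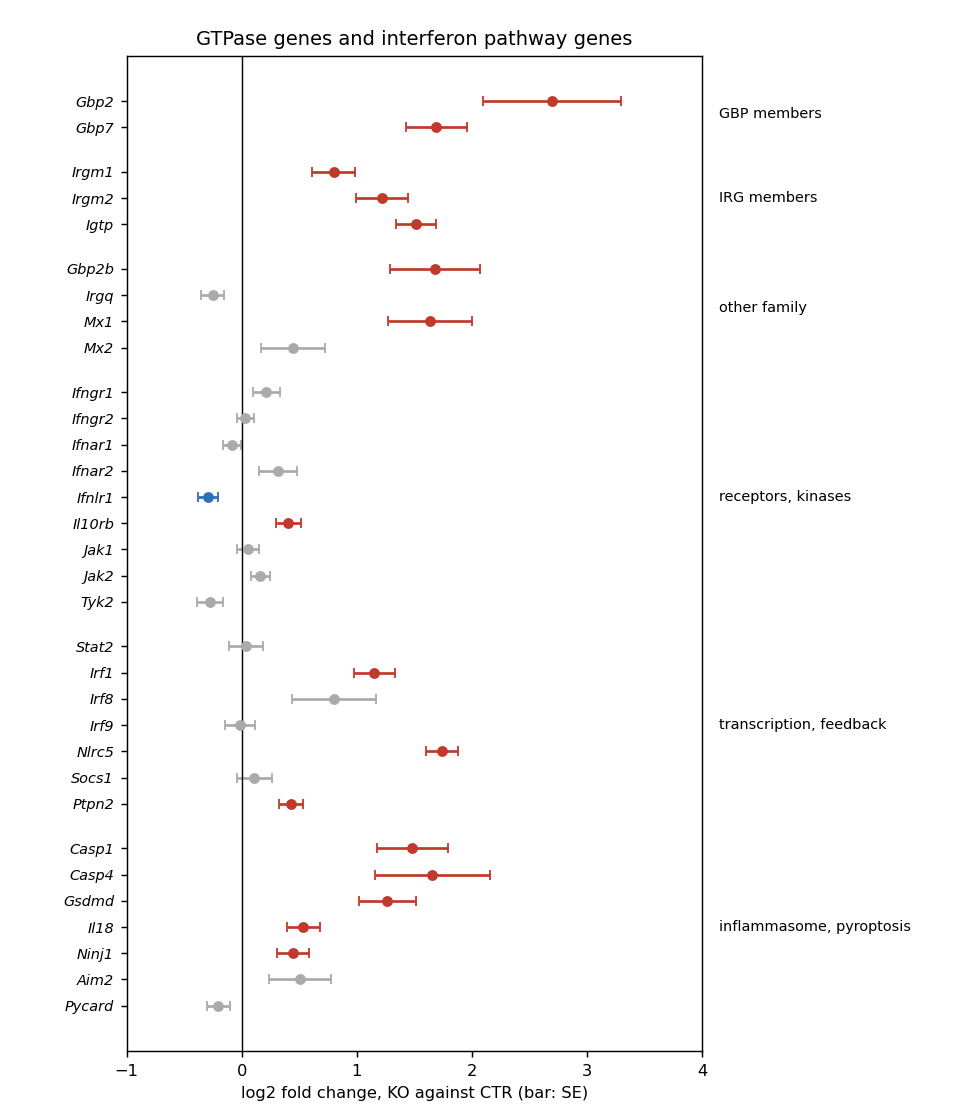
Log2 fold change, KO against CTR, with bars of 1 SE, for the tested GTPase genes and selected genes of the interferon pathway (n = 4 per group). Red points are higher in KO, blue points lower and grey points not past the threshold. The 5 tested GTPase genes lie at 0.80 to 2.70 and the receptor and kinase genes within -0.30 to 0.41.

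Of the inflammasome and pyroptosis genes that act with GBPs, 5 of 11 tested were higher (11.5% of all genes) and 0 lower (12.2%), with a median log2 fold change of 0.51. Casp4 reached the filter level in all KO but not in all CTR libraries. Casp1, the inflammasome caspase, had 5.22, 6.93, 5.63 and 4.61 CPM in CTR 1 to 4 and 26.0, 15.9, 12.4 and 8.31 CPM in KO 1 to 4. The KO values spanned a wide range, all above CTR (2.80-fold, log2 fold change 1.48, adjusted p = 0.00801). Gsdmd, whose product forms the pyroptotic pore, rose from 0.953 ± 0.302 to 2.28 ± 0.287 CPM (2.40-fold, adjusted p = 0.0065). Casp4, the caspase that senses cytosolic lipopolysaccharide, rose by 3.15-fold (adjusted p = 0.0367). KO 2 had 3.03 CPM of Casp4 and the other KO libraries had 0.944 to 1.22 CPM, and without KO 2, CTR 1, CTR 3, CTR 4 or KO 4 the call was lost. Il18 rose by 1.45-fold (adjusted p = 0.0248) with overlapping groups, and its call was lost without CTR 1, CTR 2, CTR 4 or KO 4. Ninj1, which ruptures the membrane of dying cells, had a log2 fold change of 0.45 (adjusted p = 0.044, named after its value was seen). Its groups overlapped too (20.7 to 29.3 CPM in CTR, 27.3 to 41.7 CPM in KO), and its call was not followed through the fits that left out 1 library. Aim2, a DNA sensor, did not pass (0.51, adjusted p = 0.198).

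The autophagy conjugation genes, which help load IRG and GBP proteins onto membranes, had 3 of 19 tested higher and 1 lower (median log2 fold change 0.06, against 11.5% higher and 12.2% lower among all genes). Atg4b, the protease that prepares LC3, fell to 51.6 ± 2.55 from 87.0 ± 5.18 CPM (log2 fold change -0.75, adjusted p = 0.000235). Sqstm1, the receptor p62, rose (log2 fold change 0.32, adjusted p = 0.0115), as did Gabarapl2 (0.27) and Map1lc3a (0.22). The calls of Gabarapl2 and Map1lc3a were lost without 5 and 6 of the 8 libraries in turn, KO 1, KO 4, CTR 1 and CTR 2 in both cases. Of 13 prenylation and GTPase membrane cycle genes none was called by edgeR (0 higher, 0 lower, median 0.05), with 2 at an unadjusted p under 0.05 and 1 called by DESeq2 and by limma-voom. The most abundant were Gdi2 (log2 fold change 0.08) and Arhgdia (-0.08).

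The 10 GTPase genes lie in 5 places in the genome, and their neighbours were compared in the same fit. For each place the 3 nearest tested protein-coding genes on either side were taken, 30 in all, of which 2 were higher and 3 lower in KO (5 called, 16.7%, against 23.7% of all genes tested). Around the chromosome 3 GBP cluster 0 of 6 were called by edgeR or limma-voom and 1 by DESeq2 (2 at an unadjusted p under 0.05), with log2 fold changes of -1.21 to 0.24. Beside Igtp and Irgm2 the 6 neighbours had -0.54 to 0.34, and Gemin5, a gene of small nuclear RNA assembly, was lower. Beside Irgm1, Psme2b, related to the interferon-inducible proteasome activator Psme2, was higher (log2 fold change 0.58, adjusted p = 0.00282) at a distance of 73.7 kb, and Zfp62 was lower (-0.42). Beside Gbp9 and Gbp6, Lrrc8c was higher (0.74, adjusted p = 0.0345), and beside Iigp1, Adamts19 was lower (-3.02, adjusted p = 0.00345).

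For each gene of at least 1 CPM, 14380 in all, the deviations of the 8 libraries from their group means were compared with the mean deviation of the 5 tested GTPase genes. The most alike were Sgk1 (Pearson r = 0.97, Spearman rho = 0.81), Gm16459 (0.94 and 0.86), Serpinb6d (0.94 and 0.90), Gm19569 (0.94 and 0.95), Telo2 (0.93 and 0.90) and Gm17767 (0.93 and 0.90). These values describe 8 libraries that share depth and handling. Sgk1 did not pass the test between groups (log2 fold change -0.04), while Serpinb6d, Telo2 and Gm17767 were lower in KO. The deviations of Gbp2, which ran from -1.38 to 1.21, were the widest of the 5 genes and weigh most in that mean, against -0.13 to 0.08 for Igtp.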

How the data were processed

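The authors deposited raw read counts per gene for 46983 Ensembl identifiers, with no normalization. Libraries were stranded poly-A libraries from 1 microgram of RNA, read as single 75 bp reads, per the labels' protocols. The submitters' processing notes name STAR 2.4.1d, featureCounts 1.4.6 and cutadapt 1.7.1 among other tools, and the build GRCm38. How the counting treated strand and multiply mapping reads, and with which annotation release, is not given in the sources used here.

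Symbols and positions came from GENCODE M21 (46488 identifiers matched). The test was that of edgeR 4.0.16 (R 4.3.3; quasi-likelihood, two-sided, trimmed mean of M values, filterByExpr defaults, group as the only term), with Benjamini-Hochberg adjustment over all 15638 genes tested and a threshold of 0.05. The same analysis was tested on simulated counts. CPM values are normalised, and SD is over 4 libraries. Counting intervals are exact binomial (Clopper-Pearson), at 95%. Alternatives were other normalizations, no filter or a mean of at least 1 CPM, robust dispersion, DESeq2 1.42.0, limma-voom (limma 3.58.1), an added Xist or leukocyte marker term, and leaving out each library. Fits without a filter that leave out 1 library were added after the data were seen.

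The genes, lists and tests were chosen with earlier results of these data known. Of each list, up to 4 called genes with the largest change at 1 CPM or more were named, filled up to 2 with the most abundant, besides all relatives of the 2 families, the nearest neighbours and central interferon and inflammasome genes. Likeness was measured on log2 CPM with a prior count of 2. Replicate numbers follow sample order and pair nothing, and the labels give no sex, litter or batch. 1 gene that the rule would name is not reported here.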

Additional observations from a re-analysis of the deposited data

Results flagged for a closer look

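In 82 groups of 4 libraries (41 genes), 10 had 1 library whose gap to the nearest other library was large for the group's range, where chance alone gives about 1 in 20. Of the GTPase genes, Igtp had 0.941 CPM in CTR 4 against 0.866 to 0.871 CPM in the other CTR libraries, a small step in a tight group. Gbp9 had 0.144 CPM in CTR 2 (3 reads) against 0.0471 to 0.0619 CPM. Iigp1 had 0.337 CPM in CTR 2 (7 reads) against 0 to 0.0512 CPM. The relative Gbp2b had 2.62 CPM in KO 1 against 1.00 to 1.11 CPM in the other KO libraries.

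Among pathway genes, Casp4 had 3.03 CPM in KO 2 against 0.944 to 1.22 CPM, and Irf9 had 16.0 CPM in KO 2 against 20.9 to 21.7 CPM. Irf8 had 1.37 CPM in CTR 4 against 0.681 to 0.770 CPM, and Sqstm1 had 139.7 CPM in CTR 4 against 128.1 to 129.2 CPM. Gabarapl2 had 31.9 CPM in CTR 3 against 28.8 to 29.2 CPM, and Atl2 had 119.4 CPM in CTR 1 against 131.5 to 133.5 CPM.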

How the results depend on the processing

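Of the 10 GTPase genes, 5 were called higher in the main fit and in every fit that left out 1 library (5 to 5). The count was also 5 with each other normalization, robust dispersion, DESeq2 and limma-voom. It was 6 with no count filter, where Gbp5 was added, and 4 at a mean of at least 1 CPM, where Gbp2 was not tested. None (0) were called with the Xist term or with the leukocyte marker term. Over all genes 3700 were called, 2589 to 4370 when 1 library was left out, 77 with the Xist term and 11 with the leukocyte marker term, where standard errors of the GTPase genes were larger. Among the recomputed pathway genes called in the main fit, Nlrc5 and Atg4b were still called with the Xist term and none with the leukocyte term. No paired analysis was possible because the labels give no litter or batch to pair by, and the replicate numbers pair nothing.

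Some directions turned, most of them of genes that were not called; the exception was Il18, called at 0.54. Iigp1, at 0.18 without a filter, had -0.25 to 2.35 when 1 library was left out, at 2.35 without CTR 2 and below 0 without CTR 1 (-0.021), CTR 3 (-0.16), CTR 4 (-0.25), KO 1 (-0.24) or KO 3 (-0.22). With the Xist term Irgq turned to 0.045, Ifngr2 to -0.093, Gdi2 to -0.030 and Irf9 to 0.073. With the leukocyte term Aim2 turned to -0.095, Il18 to -0.078 and Gdi2 to -0.13. Irf9 turned to 0.012 with upper-quartile factors and 0.0040 with library totals. With 1 library left out, Irf9 ranged from -0.095 to 0.083 (above 0 without CTR 2, CTR 3 or KO 2), Ifngr2 from -0.022 (without KO 4) to 0.060, Jak1 from -0.020 (without KO 3) to 0.11 and Ppp1r8 from -0.21 to 0.048 (without KO 2). Why these values turned was not tested. Gbp3 passed without KO 2 (adjusted p = 0.0154, 0.0154 to 0.179 over its alternatives), and Irgq without KO 3 (adjusted p = 0.00461).

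Depth limits Gbp3, Gbp5, Gbp6, Gbp9 and Iigp1, which had 47 or fewer reads per group.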
